A study of Homo sapiens with 24 samples.

Results

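Aminoacyl-tRNA synthetases are the enzymes that load each tRNA with its amino acid, and so supply every ribosome with charged tRNA. Human cells keep most of them as separate nuclear genes for the cytosol and for mitochondria, while GARS and KARS, for glycine and lysine, serve both places from 1 gene. Several cytosolic synthetase genes are targets of ATF4, the transcription factor of the integrated stress response, which is made when the translation factor eIF2 alpha is phosphorylated and which raises genes of amino acid supply. In blood-forming cells, as elsewhere, they are expressed in all cells that make protein.

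The genes described here are 36 synthetase genes listed by symbol, of 25728 symbols in the count files: 20 cytosolic genes, and 16 mitochondrial genes whose names end in 2. All 36 passed the filter on low counts, as did 14588 genes in all. Of the cytosolic genes, 13 were assigned to the ATF4-dependent set from general knowledge of ATF4 targets (AARS, CARS, EPRS, GARS, IARS, LARS, MARS, NARS, SARS, TARS, VARS, WARS and YARS), and 7 were the other cytosolic genes (DARS, FARSA, FARSB, HARS, KARS, QARS and RARS).

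RNA was sequenced from 3 human acute myeloid leukemia lines, called UCSD-AML1, TF-1 and UT-7. The series describes them as driven by EVI1, the product of MECOM. Cells of each line received 3 mM cyclocreatine, a creatine analog that creatine kinases phosphorylate, or vehicle, in both cases for 24 h, with 4 libraries in each of the 6 groups. All 24 libraries come from established cell lines. Nothing in the labels tells separate cultures from repeats of 1 culture within a group, so p-values measure the spread between these libraries, which may be technical.

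Library totals ran from 12794998 to 21200662 counts. The hematopoietic marker PTPRC stood at 348.9, 634.9 and 520.5 CPM in the vehicle libraries of TF-1, UT-7 and UCSD-AML1, while the progenitor marker CD34 was near absent in UT-7 (2.19 CPM) and the granule enzyme MPO was near 0 in all 3 lines. Of the treated libraries 1 stood apart: TF-1 cyclocreatine replicate 1 drew 10.2% of its counts from 86 genes of cytosolic ribosomal proteins. That share was 8.48% to 8.53% for replicates 2, 3 and 4 with cyclocreatine, and 6.33% to 6.61% for TF-1 vehicle. Levels below are CPM (counts per library after TMM scaling, set to a common total), fold changes are cyclocreatine over vehicle on the log2 scale with their SE, and a gene is said to have risen or fallen where the adjusted p of edgeR's quasi-likelihood test was under 0.05.

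Without drug, cytosolic synthetase transcripts were several times more abundant than mitochondrial ones. Per kilobase of transcript, the 20 cytosolic genes had a median of 82.4 CPM in TF-1, 75.6 in UT-7 and 55.9 for UCSD-AML1, and the 16 mitochondrial genes had medians of 15, 18.2 and 14.5 CPM per kilobase. FARSA, the alpha subunit of phenylalanyl-tRNA synthetase, was the highest in TF-1 (180.0 CPM per kilobase) and UT-7 (179.0), and KARS the highest in UCSD-AML1 (112.0). The lowest cytosolic gene in each line was CARS, for cysteine, at 19.2, 19.7 and 13.4 CPM per kilobase. The ranges met: 6 mitochondrial genes in TF-1, 6 in UT-7 and 10 for UCSD-AML1 lay above CARS, led by IARS2 in TF-1 (47.1) and UCSD-AML1 (41.3) and by SARS2 in UT-7 (41.6).

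**Figure D1:**
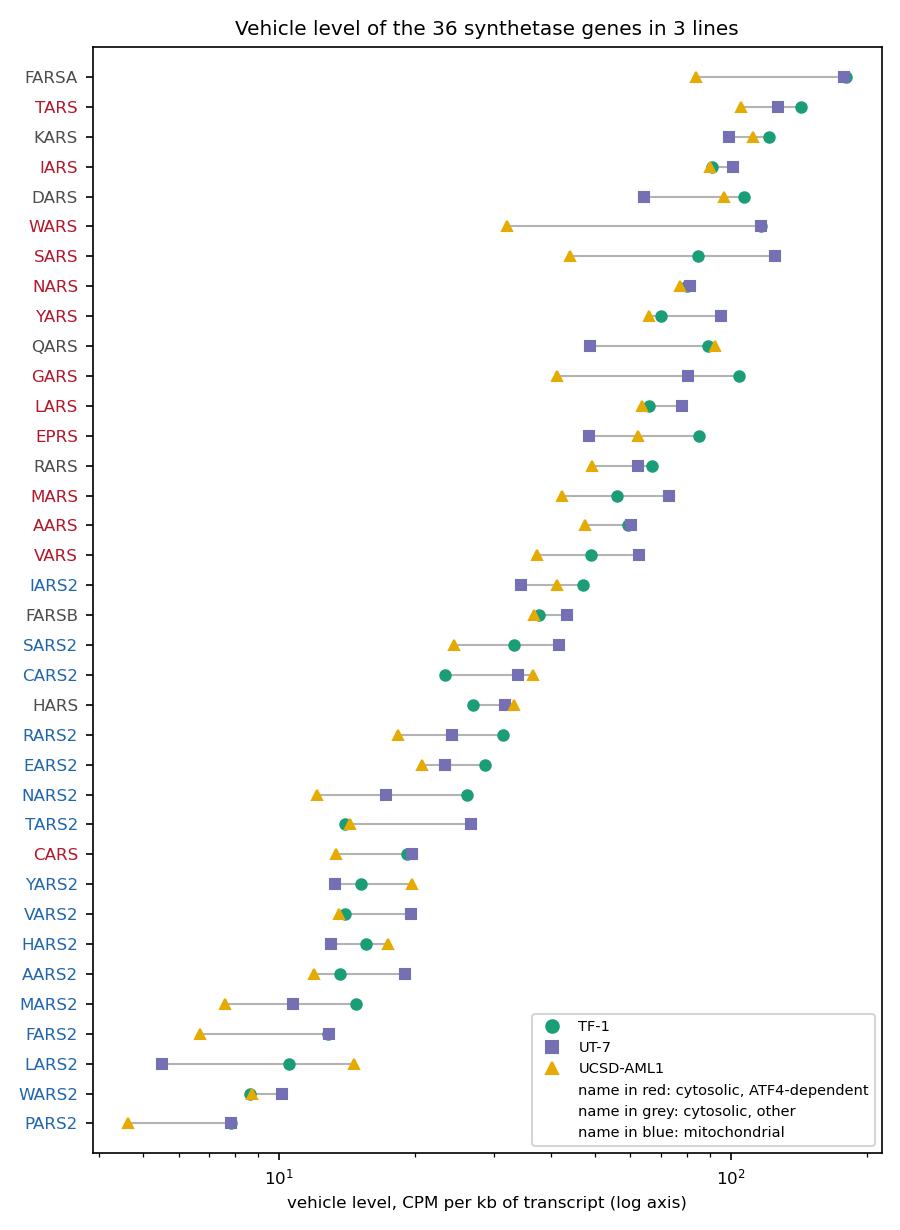
Mean vehicle level of each of the 36 genes in CPM per kilobase of transcript on a log axis, with 1 symbol per line; name colours mark the 3 sets. Most cytosolic genes lie above most mitochondrial genes, CARS and HARS lie among the mitochondrial ones, and FARSB lies below IARS2. WARS shows the widest gap between UCSD-AML1 and the other 2 lines.

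The 3 lines differed in most of these genes before any drug, as they did in most genes. Between TF-1 and UT-7, 29 of the 36 differed (79.7% of all genes tested did, 41.0% higher and 38.7% lower), between TF-1 and UCSD-AML1 28 (84.0% of all genes, 40.6% higher and 43.3% lower) and between UT-7 and UCSD-AML1 33 (81.5% of all genes, 40.0% higher and 41.5% lower). UCSD-AML1 had the lower level for most: 23 of the 28 genes were higher in TF-1 than in UCSD-AML1, and 25 of the 33 were higher in UT-7 than in UCSD-AML1. In the ATF4-dependent set, 10 of 13 were higher in TF-1 than in UCSD-AML1 with none lower, and 11 of 13 were higher in UT-7 with 1 lower.

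WARS, for tryptophan, had the largest of these differences. It averaged 360.5 ± 4.68 CPM in TF-1, 361.0 ± 5.04 in UT-7 and 99.1 ± 2.48 for UCSD-AML1 vehicle libraries (SD, n = 4 each), 3.64-fold higher in TF-1 than in UCSD-AML1 (edgeR adjusted p = 2.69e-35). SARS, for serine, was 2.85-fold higher in UT-7 than in UCSD-AML1 (236.4 against 83.0 CPM), and GARS was 2.54-fold higher in TF-1 than in UCSD-AML1 (275.4 against 108.6 CPM). QARS, for glutamine, went another way, at 252.2 CPM in TF-1, 138.0 in UT-7 and 260.9 for UCSD-AML1. Among mitochondrial genes LARS2, for leucine, spread most: 49.9 CPM in TF-1, 26.1 in UT-7 and 69.6 for UCSD-AML1, 2.66-fold lower in UT-7 than in UCSD-AML1.

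Cyclocreatine moved the 36 genes in both directions in every line, by 1.84-fold or less. In TF-1, 14 rose, 16 fell and 6 did not pass the test (56.0% of all genes tested passed, 26.7% higher and 29.3% lower). With libraries scaled by their totals alone the TF-1 split was 9 higher and 18 lower, and that of all genes 3001 and 5225 instead of 3901 and 4272. In UT-7, 10 rose and 10 fell (45.9% of all genes passed, 22.5% higher and 23.3% lower), and in UCSD-AML1 9 rose and 10 fell (40.5% of all genes passed, 19.1% higher and 21.3% lower). The 4 treated libraries lay wholly outside the range of the 4 vehicle libraries for 23 genes in TF-1, 19 in UT-7 and 21 for UCSD-AML1, where 40.2%, 47.4% and 44.2% of all genes did. Over the 36 the median log2 fold change lay within 0.01 of 0 in every line, and so did that of all genes tested. With library totals alone the medians for TF-1, UT-7 and UCSD-AML1 were -0.09, -0.04 and -0.01 over the 36, and -0.09, -0.03 and -0.01 over all genes. A lower CPM in these bulk libraries cannot separate fewer cells of a kind from less of the transcript per cell.

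**Figure D2:**
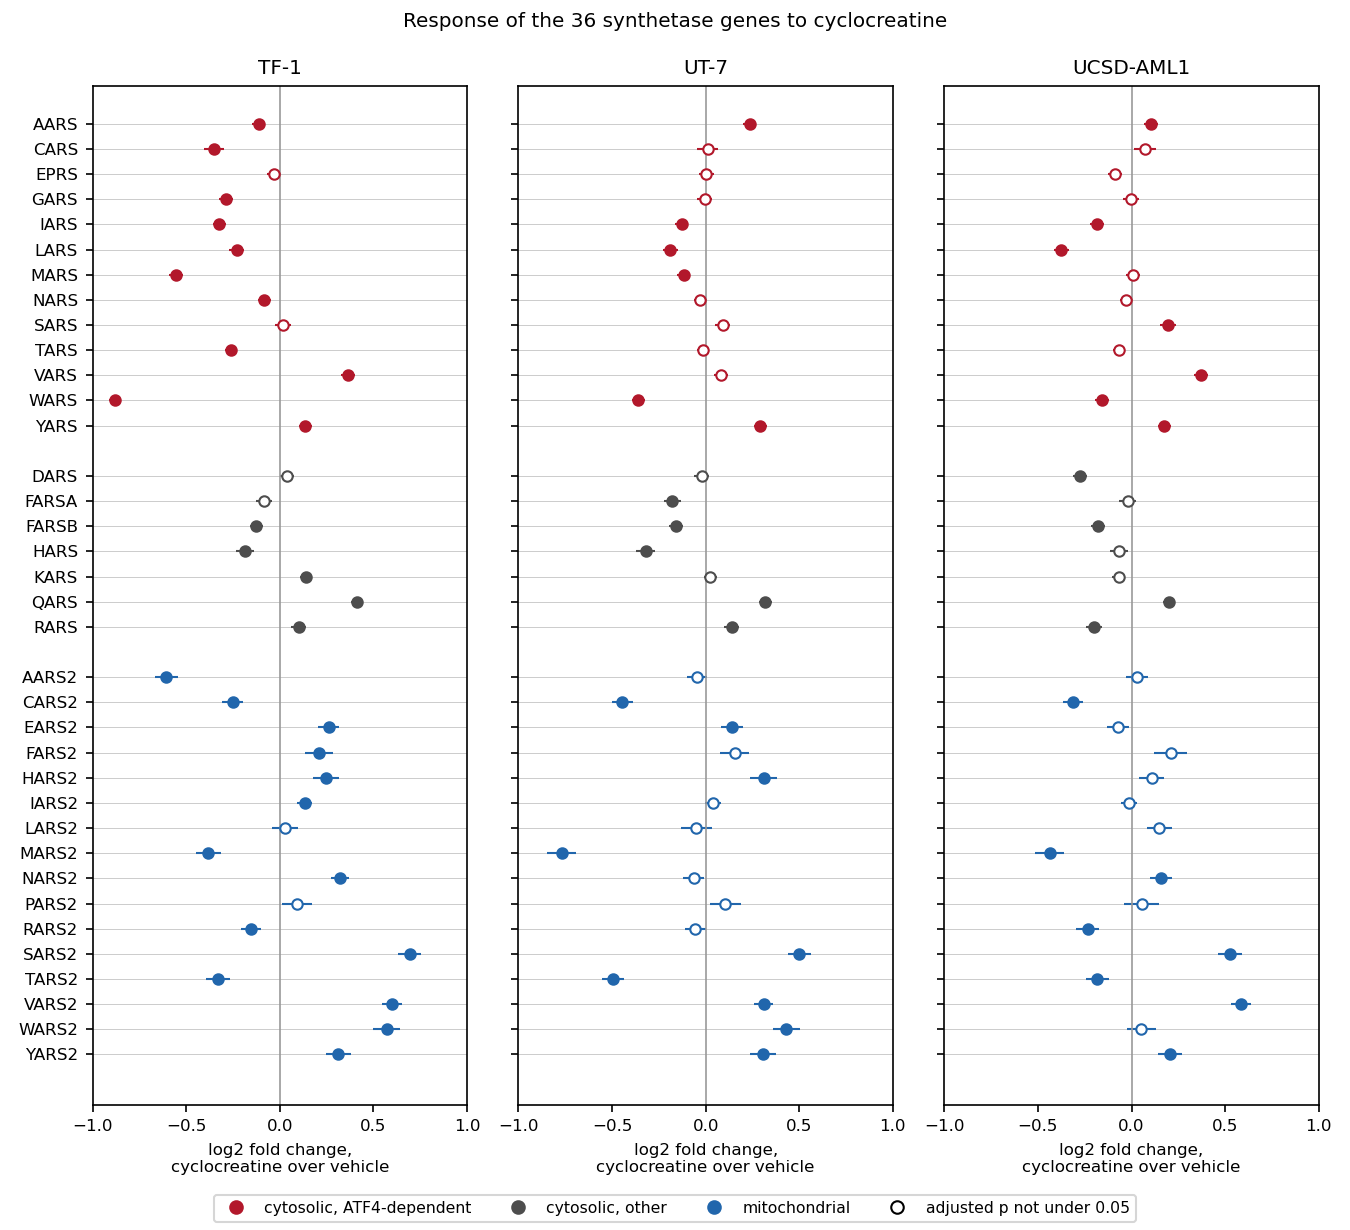
Log2 fold change, cyclocreatine over vehicle, of each of the 36 genes in the 3 lines, with bars of 1 SE; filled points passed the test and open points did not. In TF-1 most ATF4-dependent genes lie left of 0 and most mitochondrial genes right of it, while in UT-7 and UCSD-AML1 the 3 sets lie on both sides.

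The sets differed most in TF-1. Of the 13 ATF4-dependent genes, 9 fell there (AARS, CARS, GARS, IARS, LARS, MARS, NARS, TARS and WARS), 2 rose (VARS and YARS), and EPRS and SARS did not pass. Their median log2 fold change was -0.23, beside -0.01 over all genes tested, of which 26.7% rose and 29.3% fell. The 7 other cytosolic genes had a median of 0.04, with 3 higher, 2 lower and 2 that missed the threshold. The 16 mitochondrial genes had a median of 0.17, with 9 higher, 5 lower and 2 that missed it. Scaled by library totals alone, the counts of higher and lower genes were 1 and 10 for the ATF4-dependent set, 1 and 3 for the other cytosolic genes, whose median was then -0.04, and 7 and 5 for the mitochondrial genes. Without the TF-1 library that stood apart, they were 2 and 8, 3 and 3, and 9 and 5.

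The ATF4-dependent set did not fall together in the other 2 lines. In UT-7, 2 rose (AARS and YARS), 4 fell (IARS, LARS, MARS and WARS) and 7 did not pass, with a median of -0.01. In UCSD-AML1, 4 rose (AARS, SARS, VARS and YARS), 3 fell (IARS, LARS and WARS) and 6 did not pass. The median there lay within 0.01 of 0. The shares over all genes were 22.5% higher and 23.3% lower in UT-7, and 19.1% and 21.3% in UCSD-AML1. Tested as differences between lines, the TF-1 response was below that of UT-7 for 8 of the 13 and above it for 1 (13.2% of all genes tested were below and 14.3% above), and below that of UCSD-AML1 for 8 with none above (14.3% of all genes were below and 14.8% above). With library totals alone 8 of the 13 were below UT-7 and 1 above, and 9 were below UCSD-AML1 with none above, while over all genes 2312 were below and 1637 above UT-7, and 2766 below and 1329 above UCSD-AML1. Over all 36 genes, 13 responses differed between TF-1 and UT-7 (27.5% of all genes tested), 15 between TF-1 and UCSD-AML1 (29.1%) and 11 between UT-7 and UCSD-AML1 (23.0%). The first 2 of these comparisons share the TF-1 libraries. Among the 7 other cytosolic genes, none differed between TF-1 and UT-7, and 4 were higher in TF-1 relative to UCSD-AML1 (DARS, KARS, QARS and RARS).

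Summed over the 13 ATF4-dependent genes, TF-1 libraries held 2955 to 3062 CPM with cyclocreatine, against 3360 to 3489 CPM with vehicle. The 2 TF-1 groups did not overlap, with the treated libraries lower. In UT-7 the sum was 3431 to 3505 CPM with cyclocreatine and 3477 to 3581 CPM with vehicle, and in UCSD-AML1 2445 to 2483 and 2445 to 2624 CPM. The groups overlapped in both of these lines, although with libraries scaled by their totals alone the UT-7 groups did not (3475 to 3560 CPM with cyclocreatine and 3625 to 3714 CPM with vehicle). The 16 mitochondrial genes summed to 871.7 to 907.8 CPM with cyclocreatine and 779.3 to 828.2 CPM with vehicle in TF-1, to 793.9 to 821.1 and 777.5 to 792.5 CPM in UT-7, and to 736.0 to 752.2 and 694.1 to 717.4 CPM in UCSD-AML1. For the mitochondrial genes the treated libraries were the higher group in all 3 lines, without overlap. Scaled by totals alone the treated and vehicle sums stayed apart only in UCSD-AML1 (751.2 to 754.5 and 716.8 to 727.4 CPM), and overlapped in TF-1 (814.4 to 854.3 and 767.7 to 815.4 CPM) and UT-7 (804.6 to 829.0 and 809.7 to 821.8 CPM). The 7 other cytosolic genes summed to 1541 to 1663 CPM with cyclocreatine and 1490 to 1529 CPM with vehicle in TF-1, without overlap. For UCSD-AML1 their treated sums were lower without overlap (1181 to 1215 and 1217 to 1262 CPM). The UT-7 groups overlapped (1213 to 1248 and 1229 to 1273 CPM). With totals alone the TF-1 sums of this set overlapped (1456 to 1519 and 1474 to 1505 CPM). Its treated sums were then lower without overlap in UT-7 and UCSD-AML1.

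WARS fell furthest of all 36 genes in TF-1, and fell in the other 2 lines by less than MARS2 and CARS2 did. It is the cytosolic tryptophanyl-tRNA synthetase, a gene that interferon gamma is known to induce in human cells. In TF-1 its 4 cyclocreatine libraries held 195.1, 199.9, 205.0 and 184.0 CPM, against 353.7, 362.0, 361.8 and 364.4 CPM in vehicle libraries. For UT-7 they held 285.1, 285.7, 277.5 and 277.8 CPM, against 355.9, 366.8, 363.4 and 357.7 CPM with vehicle. For UCSD-AML1 they held 88.3, 89.9, 88.0 and 89.2 CPM, against 98.9, 102.7, 97.8 and 97.1 CPM with vehicle. Every treated library lay below every vehicle library of its line. The log2 fold change was -0.88 ± 0.03 in TF-1 (1.84-fold lower, edgeR adjusted p = 5.04e-23), -0.36 ± 0.03 in UT-7 (1.28-fold, edgeR adjusted p = 9.42e-12) and -0.16 ± 0.04 in UCSD-AML1 (1.12-fold, edgeR adjusted p = 0.000449). Of the 36 genes, 1 had a response that differed in all 3 pairs of lines, and it was WARS: by -0.52 between TF-1 and UT-7 (edgeR adjusted p = 6.79e-11), -0.72 between TF-1 and UCSD-AML1 (1.85e-14) and -0.20 between UT-7 and UCSD-AML1 (0.00187).

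Other genes that interferon gamma induces moved in both directions in each line, while WARS fell in all 3 lines. Of 15 listed, 11 were measured. In TF-1 2 rose and 5 fell, in UT-7 2 rose and 4 fell, and in UCSD-AML1 3 rose and 2 fell. The shares of all genes that rose and fell were 26.7% and 29.3%, 22.5% and 23.3%, and 19.1% and 21.3% in these lines. GBP2, a guanylate-binding protein, rose in all 3 lines (3.22-fold, 2.30-fold and 2.14-fold in TF-1, UT-7 and UCSD-AML1). PSMB9 had the largest change of the list in TF-1, a 3.91-fold fall (edgeR adjusted p = 4.28e-09). Its level there was low, at 0.886 CPM with cyclocreatine and 3.32 CPM with vehicle. PSMB8, a subunit of the immunoproteasome, fell 1.46-fold in TF-1 and 1.75-fold in UT-7, and TAP1, a peptide transporter, fell 1.93-fold and 1.47-fold.

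MARS, for methionine, was the ATF4-dependent gene that fell next furthest in TF-1. There it had 110.2, 107.6, 115.1 and 110.4 CPM with cyclocreatine, against 157.0, 172.0, 164.1 and 157.2 CPM with vehicle. The UT-7 libraries had 199.3, 192.0, 189.8 and 201.2 CPM, against 213.0, 215.8, 207.1 and 212.7 CPM. The treated libraries were the lower group in both lines, without overlap. In UCSD-AML1 the groups overlapped, at 122.6, 122.1, 125.3 and 123.9 CPM with cyclocreatine and 122.5, 124.4, 123.5 and 121.1 CPM with vehicle. Its log2 fold change was -0.55 ± 0.04 in TF-1 (edgeR adjusted p = 9.25e-16), -0.12 ± 0.04 in UT-7 (0.00604) and 0.01 ± 0.04 for UCSD-AML1 (0.921). MARS overlaps ARHGAP9 and DDIT3 in the annotation, at mean levels of 76.7 and 12.8 CPM over all libraries, and the sources used here do not give strand use in counting, so its level is uncertain to that extent.

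**Figure D3:**
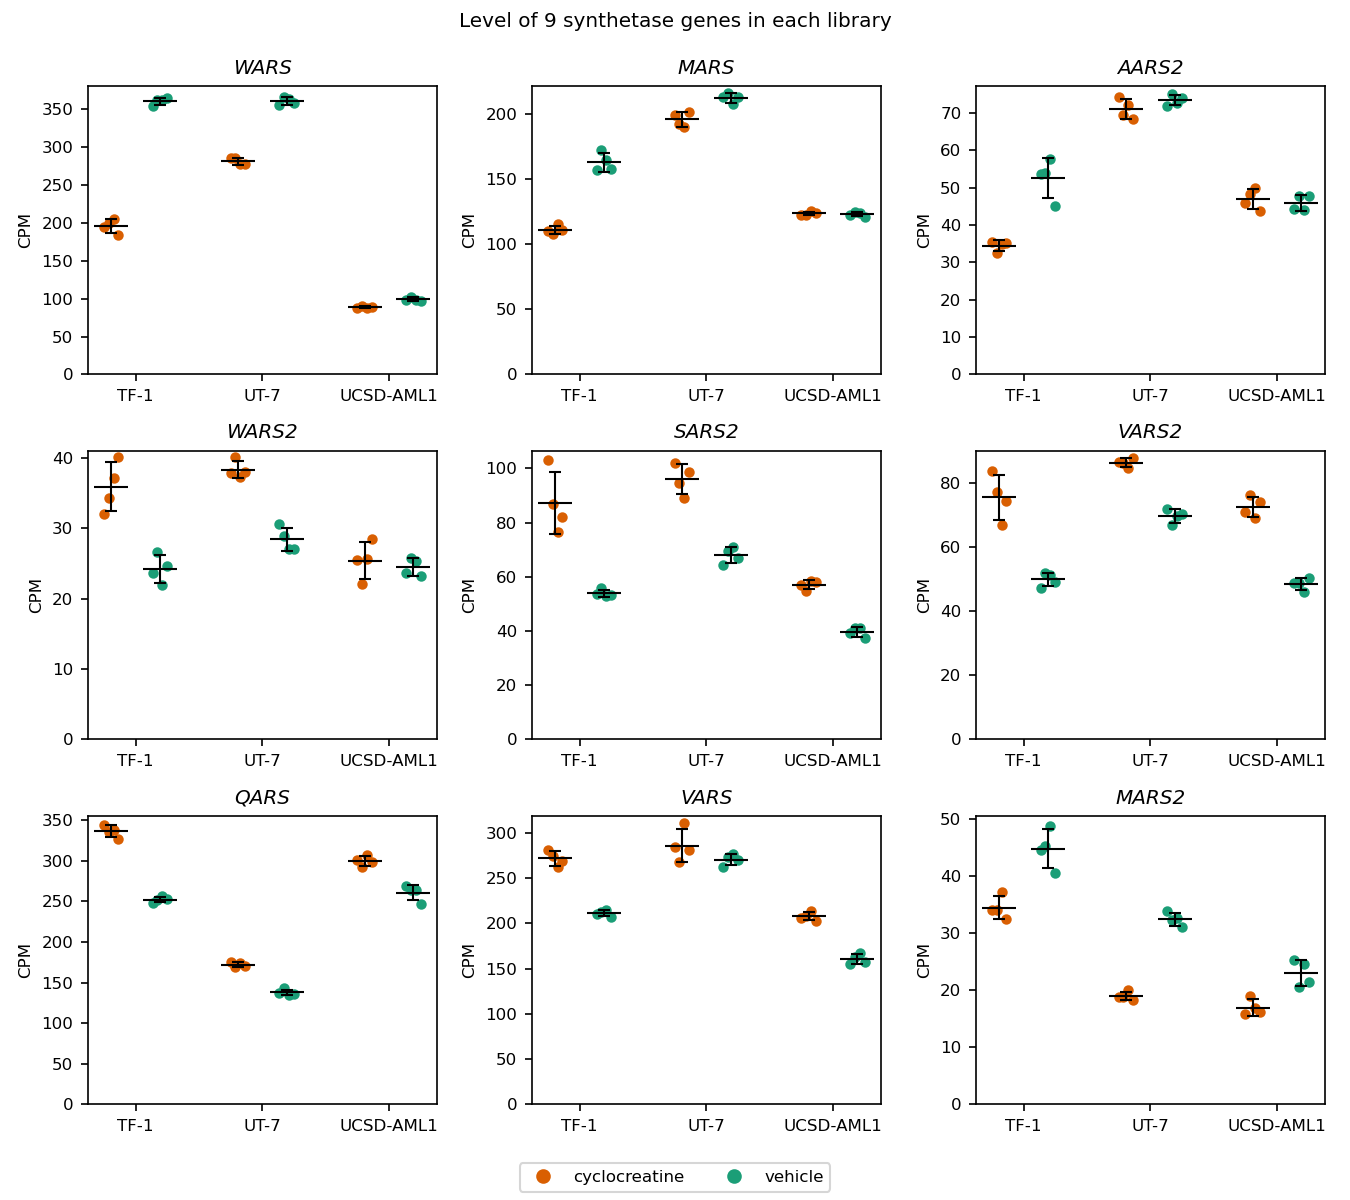
CPM of 9 of the 36 genes in each of the 24 libraries, cyclocreatine left of vehicle within each line, with the group mean and SD as bars and the axis from 0. WARS is lower with cyclocreatine in all 3 lines and lowest in UCSD-AML1 in both groups, AARS2 is lower in TF-1 and overlaps in the other 2 lines, and SARS2 and VARS2 are higher in all 3 lines.

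Smaller falls in TF-1 were those of CARS (-0.35), IARS (-0.32), GARS (-0.29), TARS (-0.26) and LARS (-0.23), the genes for cysteine, isoleucine, glycine, threonine and leucine, with edgeR adjusted p of 6.02e-06 or less. For CARS, IARS, GARS and TARS the TF-1 response was below that of both other lines by the test of the difference, and for LARS neither difference passed. In UCSD-AML1 LARS had 234.4, 232.3, 237.4 and 229.2 CPM with cyclocreatine and 305.0, 298.7, 317.7 and 288.9 CPM with vehicle (log2 fold change -0.37 ± 0.04, edgeR adjusted p = 9.83e-10). No treated library of UCSD-AML1 reached the vehicle range for LARS. NARS, for asparagine, fell by 0.08 in TF-1 (edgeR adjusted p = 0.0347), a call that was lost without TF-1 vehicle replicate 3 or 4 or TF-1 cyclocreatine replicate 1 (adjusted p 0.0866 to 0.098).

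AARS, for alanine, turned round between lines. It had 199.6, 188.6, 191.0 and 182.5 CPM with cyclocreatine in TF-1, against 194.0, 203.9, 217.8 and 207.7 CPM with vehicle, and the groups overlapped. UT-7 had 247.6, 249.5, 242.2 and 247.5 CPM with cyclocreatine, against 213.5, 207.7, 212.8 and 204.2 CPM, all treated libraries higher. Its log2 fold change was -0.11 ± 0.04 in TF-1 (edgeR adjusted p = 0.00758), 0.24 ± 0.04 in UT-7 (1.06e-06) and 0.10 ± 0.04 for UCSD-AML1 (0.0202), and the TF-1 response was 0.35 below that of UT-7 on the log2 scale (2.23e-06). The TF-1 call was lost without TF-1 vehicle replicate 3 (-0.09, adjusted p = 0.0567), and the UCSD-AML1 call without replicate 1 or 4 of either UCSD-AML1 group (adjusted p 0.0509 to 0.0794).

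VARS and YARS, for valine and tyrosine, rose within a set that mostly did not. VARS had 281.4, 274.8, 262.2 and 268.8 CPM with cyclocreatine in TF-1, against 210.1, 213.1, 214.8 and 206.8 CPM with vehicle. In UCSD-AML1 it had 206.3, 208.2, 214.2 and 203.1 CPM, against 155.2, 163.3, 166.9 and 157.6 CPM. All treated libraries of both lines were above all vehicle libraries, by 1.29-fold in each line (edgeR adjusted p = 1.26e-10 in TF-1 and 3.27e-10 in UCSD-AML1). In UT-7 VARS stood at 284.2, 268.4, 310.9 and 280.8 CPM with cyclocreatine, against 261.8, 273.7, 276.5 and 270.4 CPM with vehicle, with overlap (0.08 ± 0.04, edgeR adjusted p = 0.0757). The UT-7 response of VARS was below that of UCSD-AML1 by the test of the difference (-0.29, edgeR adjusted p = 6e-05). YARS rose 1.10-fold in TF-1, 1.22-fold in UT-7 and 1.13-fold in UCSD-AML1, the TF-1 call being lost with library totals alone (0.06, adjusted p = 0.139). It shares its locus with S100PBP (47.8 CPM), whose reads may be counted with it.

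The letters TGATGNAA, a form of the composite C/EBP and ATF site that ATF4 binds, were searched on both strands of the promoter windows that RefSeq gives for GRCh38.p14, 250 bases before to 50 bases after each gene's start. A window was at hand for 30 of the 36 genes, and none for DARS, LARS, VARS, YARS, AARS2 and VARS2. The letters were present in 5 of 10 ATF4-dependent genes (AARS, GARS, IARS, MARS and NARS), in 0 of 6 other cytosolic genes, in 1 of 14 mitochondrial genes (YARS2), and in 3.83% of 27305 promoters in all. The stretches around them are shown because part of the ATF4-dependent set shares these letters. Knowledge of such sites is among the reasons that genes are known as ATF4 targets, so their presence is no independent support for the set. Each is written 5′ to 3′ on the strand of its gene, with the match in capitals, which is the reverse complement of the searched letters except in NARS. They lie at chr16:70289636-70289743 (minus strand, AARS, named AARS1 in RefSeq), chr7:30594795-30594902 (plus, GARS), chr9:92293668-92293760 (minus, IARS), chr12:57488014-57488097 (plus, MARS) and chr18:57621807-57621872 (minus, NARS). The match begins 187, 33, 13 and 4 bases before the start in AARS, GARS, IARS and MARS. In NARS it begins at base 15, counting the start as the first base.
AARS: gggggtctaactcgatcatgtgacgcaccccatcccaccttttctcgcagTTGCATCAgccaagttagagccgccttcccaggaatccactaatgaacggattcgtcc
GARS: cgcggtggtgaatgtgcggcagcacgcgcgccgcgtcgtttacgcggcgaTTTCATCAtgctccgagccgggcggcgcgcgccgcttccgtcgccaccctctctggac
IARS: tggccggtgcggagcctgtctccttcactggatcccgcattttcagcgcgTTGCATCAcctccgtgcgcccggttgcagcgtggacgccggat
MARS: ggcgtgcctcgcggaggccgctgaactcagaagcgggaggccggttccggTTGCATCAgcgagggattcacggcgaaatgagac
NARS: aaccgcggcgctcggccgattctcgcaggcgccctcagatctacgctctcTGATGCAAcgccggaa
These 5 genes fell in TF-1, where 29.3% of all genes did, by 0.55 (MARS), 0.32 (IARS), 0.29 (GARS), 0.11 (AARS) and 0.08 (NARS) on the log2 scale, the calls of AARS and NARS being among those lost without single libraries. YARS2, which holds the same letters, rose by 0.31 in TF-1. In the other 2 lines AARS rose in both, IARS fell in both, MARS fell in UT-7, and GARS and NARS passed in neither. Of the ATF4-dependent genes searched without a match, CARS, TARS and WARS also fell in TF-1, by 0.35, 0.26 and 0.88. EPRS and SARS, also without a match, did not pass there. Among members of that set without a window, LARS fell in TF-1, and VARS and YARS rose. WARS, the gene that fell furthest in TF-1, does not hold these letters in its window. Its window holds TTCNNNGAA, the letters of an interferon gamma activated site, beginning 142 bases before the start (present in 7.95% of all promoters), and GAAANNGAAA, a core of the interferon-stimulated element, 55 bases before it (3.72% of all promoters). TARS, PARS2 and WARS2 also hold the first of these, and EARS2 the second. Of these genes TARS fell in TF-1 alone, and PARS2 passed in no line. WARS2 and EARS2 rose in TF-1 and UT-7, the UT-7 call of EARS2 being lost under several alternatives. A match is a description of the letters only.

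ATF4 itself was not lower in TF-1. Its transcript averaged 253.5 ± 16.4 CPM with cyclocreatine and 254.1 ± 12.5 CPM with vehicle in TF-1 (SD, n = 4 each, edgeR adjusted p = 0.947), 236.8 ± 10.4 and 229.3 ± 2.70 CPM in UT-7 (0.374), and 209.8 ± 4.81 and 179.0 ± 3.31 CPM in UCSD-AML1, where it rose 1.17-fold (1.62e-05). ATF4 is set mainly at translation, which transcript counts do not measure. Of 33 listed genes of the ATF4 pathway outside the synthetases, 31 were measured. In TF-1, 6 rose and 22 fell, with a median of -0.32, in UT-7 10 rose and 9 fell, with a median of -0.03, and in UCSD-AML1 10 rose and 7 fell, with a median of 0.08. Without the TF-1 library that stood apart, the TF-1 counts were 6 and 20. Of all genes tested, 26.7% rose and 29.3% fell in TF-1, 22.5% and 23.3% in UT-7, and 19.1% and 21.3% in UCSD-AML1.

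In TF-1 the pathway genes with the smallest p were CBS, an enzyme of cysteine synthesis (36.03 CPM with cyclocreatine and 80.4 CPM with vehicle, 2.23-fold lower), TRIB3, a feedback inhibitor of ATF4 (43.2 and 78.5 CPM, 1.82-fold lower), the glycine transporter SLC6A9 (6.29 and 20.9 CPM, 3.30-fold lower) and the glutamine transporter SLC1A5 (295.5 and 417.6 CPM, 1.41-fold lower). In UT-7 they were SLC1A5 (340.1 and 518.4 CPM, 1.52-fold lower), PPP1R15A, which directs the phosphatase of eIF2 alpha (106.6 and 161.5 CPM, 1.52-fold lower), ATF5 and CBS. In UCSD-AML1 they were ATF5, SHMT2, a mitochondrial enzyme of serine use (300.5 and 229.2 CPM, 1.31-fold higher), DDIT3, and DDIT4, an inhibitor of mTORC1 (16.9 and 8.13 CPM, 2.08-fold higher). DDIT3, the stress factor CHOP, rose in all 3 lines, by 1.94-fold in TF-1, 1.73-fold in UT-7 and 2.12-fold in UCSD-AML1. ATF5, a factor related to ATF4, fell in all 3, by 1.66-fold, 1.55-fold and 1.51-fold. Of the 4 eIF2 alpha kinases, EIF2AK2 fell in TF-1 (1.46-fold) and UCSD-AML1 (1.19-fold), EIF2AK1 rose 1.05-fold in TF-1 and fell 1.13-fold in UT-7, and EIF2AK3 rose 1.16-fold in UT-7.

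Among the 7 other cytosolic genes QARS moved most in TF-1, HARS in UT-7 and DARS in UCSD-AML1. With cyclocreatine QARS had 344.6, 335.4, 337.8 and 326.9 CPM in TF-1, against 248.0, 251.6, 256.2 and 252.8 CPM with vehicle. UT-7 libraries held 175.0, 168.7, 174.0 and 171.0 CPM, against 137.6, 142.9, 135.3 and 136.0 CPM. In UCSD-AML1 it had 301.5, 292.9, 306.8 and 298.4 CPM, against 268.6, 264.6, 263.4 and 246.8 CPM. The treated libraries were higher in all 3 lines without overlap, by 1.33-fold in TF-1 (edgeR adjusted p = 1.05e-13), 1.25-fold in UT-7 (5e-10) and 1.15-fold in UCSD-AML1 (3.4e-06). FARSB, the beta subunit for phenylalanine, fell in all 3 lines by 1.09-fold to 1.13-fold. Its partner subunit FARSA fell 1.13-fold in UT-7 and did not pass in TF-1 or UCSD-AML1.

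RARS, for arginine, moved in opposite directions. It had 158.1, 159.9, 156.9 and 141.4 CPM with cyclocreatine in TF-1, against 146.2, 142.2, 143.1 and 142.1 CPM with vehicle. In UT-7 it had 145.7, 144.8, 152.7 and 146.9 CPM, against 132.7, 137.4, 135.5 and 130.4 CPM, and in UCSD-AML1 94.5, 89.1, 88.7 and 95.6 CPM, against 103.5, 104.1, 111.6 and 103.8 CPM. All treated libraries were higher in UT-7 and lower in UCSD-AML1, and the groups overlapped in TF-1. The log2 fold change was 0.10 ± 0.04 in TF-1 (edgeR adjusted p = 0.0289), 0.14 ± 0.04 in UT-7 (0.00482) and -0.20 ± 0.04 for UCSD-AML1 (0.000158), and the UT-7 response exceeded that of UCSD-AML1 by 0.34 ± 0.06 (2.44e-05). The TF-1 call was lost without TF-1 vehicle replicate 2, 3 or 4 or TF-1 cyclocreatine replicate 2 or 3 (adjusted p 0.0528 to 0.0927), and with library totals alone (0.02, adjusted p = 0.664). DARS, for aspartate, fell 1.21-fold in UCSD-AML1 and KARS rose 1.10-fold in TF-1, each without passing in the other 2 lines. The KARS call was lost with library totals alone (0.06, adjusted p = 0.102).

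EPRS, IARS, LARS, MARS, DARS, KARS, QARS and RARS are the synthetases of the multi-enzyme complex that human cells assemble on 3 scaffold proteins without synthetase activity. Of these 8 genes, 3 rose and 3 fell in TF-1, 2 rose and 3 fell in UT-7, and 1 rose and 4 fell in UCSD-AML1. Of the 12 cytosolic genes outside the complex, 2 rose and 8 fell in TF-1, and 2 rose and 4 fell in UT-7. In UCSD-AML1 4 of them rose and 2 fell. All genes tested gave 26.7% higher and 29.3% lower in TF-1, 22.5% and 23.3% in UT-7, and 19.1% and 21.3% in UCSD-AML1. EPRS, an enzyme of the complex that charges tRNA with both glutamate and proline, did not pass in any line. Of the scaffolds, AIMP1 rose 1.15-fold in TF-1, AIMP2 fell 1.16-fold in UT-7, and EEF1E1 (AIMP3) fell 1.28-fold in UT-7 and 1.29-fold in UCSD-AML1.

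Of 10 listed partners of tRNA handling, which include those scaffolds, 9 were measured. In TF-1 4 rose and 1 fell, in UT-7 1 rose and 3 fell, and in UCSD-AML1 2 fell. The shares of all genes that rose and fell were 26.7% and 29.3%, 22.5% and 23.3%, and 19.1% and 21.3% in these lines. XPOT, which exports tRNA from the nucleus, averaged 194.9 ± 18.7 CPM with cyclocreatine and 255.5 ± 6.94 CPM with vehicle in TF-1 (SD, n = 4 each), a 1.31-fold fall (edgeR adjusted p = 1.42e-09), and fell 1.16-fold in UCSD-AML1. TRNT1, which adds the CCA end that every tRNA needs before charging, rose 1.30-fold in TF-1 and 1.21-fold in UT-7. The peptidyl-tRNA hydrolase PTRH2 rose 1.31-fold in TF-1. DTD1, which removes D-amino acids from tRNA, fell 1.17-fold in UT-7, and YRDC, for a modified base of tRNA, passed in no line. AARSD1, an editing enzyme for alanine, did not pass the filter on low counts.

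The mitochondrial synthetases charge the tRNAs that mitochondria use to make subunits of the respiratory chain. SARS2, for serine, rose most in TF-1 and UT-7, and VARS2 in UCSD-AML1. With cyclocreatine SARS2 had 103.1, 87.0, 76.4 and 82.2 CPM in TF-1, against 53.6, 55.9, 52.9 and 53.2 CPM with vehicle. Libraries of UT-7 had 101.8, 94.5, 89.0 and 98.8 CPM, against 64.3, 69.4, 71.0 and 66.8 CPM, and in UCSD-AML1 57.1, 54.6, 58.6 and 58.2 CPM, against 39.1, 41.2, 41.0 and 37.4 CPM. Every treated library was above every vehicle library of its line, and in TF-1 replicate 1 was the highest of the treated ones. SARS2 rose by 0.69 ± 0.06 on the log2 scale in TF-1 (edgeR adjusted p = 2.33e-12), 0.50 ± 0.06 in UT-7 (8.3e-09) and 0.52 ± 0.06 for UCSD-AML1 (2.19e-08), and no difference between lines passed.

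VARS2, for valine, had 83.7, 77.4, 66.8 and 74.5 CPM with cyclocreatine in TF-1, against 47.3, 51.9, 51.5 and 49.2 CPM with vehicle. The UT-7 values were 86.6, 86.4, 84.8 and 87.9 CPM, against 71.9, 66.9, 69.9 and 70.4 CPM, and in UCSD-AML1 71.0, 76.2, 69.3 and 74.2 CPM, against 48.8, 48.9, 45.9 and 50.3 CPM. The treated libraries were higher in all 3 lines without overlap, by 1.51-fold in TF-1 (edgeR adjusted p = 2.68e-12), 1.24-fold in UT-7 (4.62e-06) and, at a log2 fold change of 0.58 ± 0.05, in UCSD-AML1 (1.91e-11). Its UT-7 response was below that of each of the other 2 lines (edgeR adjusted p = 0.00296 and 0.00543). YARS2, for tyrosine, also rose in all 3 lines, by 1.24-fold, 1.24-fold and 1.15-fold, and none of its differences between lines passed.

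WARS2, for tryptophan, rose in 2 lines. It had 32.0, 34.2, 37.0 and 40.0 CPM with cyclocreatine in TF-1, against 23.6, 26.6, 22.0 and 24.7 CPM with vehicle. Those of UT-7 were 37.9, 40.0, 37.3 and 38.0 CPM, against 30.6, 28.8, 27.1 and 27.0 CPM. Treated libraries of both lines lay above all vehicle libraries. In UCSD-AML1 the groups overlapped, at 25.4, 22.1, 25.7 and 28.4 CPM with cyclocreatine and 23.6, 25.7, 25.4 and 23.1 CPM with vehicle. On the log2 scale WARS2 rose by 0.57 ± 0.07 in TF-1 (edgeR adjusted p = 2.37e-08), 0.43 ± 0.07 in UT-7 (6.74e-06), while the change was 0.05 ± 0.08 in UCSD-AML1 (0.645). The UCSD-AML1 response was exceeded by that of TF-1, by 0.52 ± 0.11 (0.00024), and by that of UT-7, by 0.38 ± 0.11 (0.00732).

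AARS2, for alanine, fell in TF-1. Its libraries held 35.6, 32.5, 34.8 and 35.1 CPM with cyclocreatine in TF-1, against 53.6, 53.9, 57.7 and 45.2 CPM with vehicle. The groups did not overlap there. In UT-7 they held 74.3, 69.6, 72.2 and 68.5 CPM, against 72.0, 75.1, 72.7 and 74.1 CPM, and in UCSD-AML1 45.8, 48.2, 49.9 and 43.8 CPM, against 44.2, 47.8, 44.0 and 47.8 CPM, with overlap in both lines. The log2 fold change of -0.61 ± 0.06 in TF-1 (edgeR adjusted p = 4.72e-11) differed from that of UT-7 (-0.05 ± 0.06) by -0.56 (1.99e-06) and from that of UCSD-AML1 (0.03 ± 0.06) by -0.64 (2e-07).

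MARS2, for methionine, fell in all 3 lines and most in UT-7. It had 34.0, 34.0, 37.2 and 32.4 CPM with cyclocreatine in TF-1, against 44.5, 45.2, 48.8 and 40.5 CPM with vehicle. In UT-7 it had 18.8, 18.8, 20.0 and 18.3 CPM, against 33.8, 32.2, 32.5 and 31.0 CPM, and in UCSD-AML1 15.8, 19.0, 16.8 and 16.2 CPM, against 25.3, 20.5, 24.5 and 21.5 CPM. No treated library reached the vehicle range of its line. The log2 fold change was -0.38 ± 0.07 in TF-1 (edgeR adjusted p = 7.11e-06), -0.77 ± 0.08 in UT-7 (6.89e-11) and -0.44 ± 0.08 for UCSD-AML1 (1.67e-05), and the UT-7 fall exceeded that of each other line (edgeR adjusted p = 0.00355 and 0.0226).

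TARS2 and CARS2, for threonine and cysteine, also fell in all 3 lines. In UT-7 TARS2 had 52.9, 50.2, 50.2 and 53.4 CPM with cyclocreatine, against 75.1, 76.4, 68.6 and 71.2 CPM with vehicle, a 1.41-fold fall (edgeR adjusted p = 6.21e-09). CARS2 had 48.0, 45.0, 47.4 and 45.8 CPM in UT-7, against 65.2, 62.6, 64.5 and 61.4 CPM, a 1.36-fold fall (edgeR adjusted p = 1.92e-08). In UCSD-AML1 CARS2 had 52.7, 54.1, 57.8 and 56.0 CPM, against 66.4, 67.4, 70.8 and 69.7 CPM, a 1.24-fold fall (edgeR adjusted p = 9.44e-06). The groups of each of these 3 comparisons did not overlap, and CARS2 overlaps ING1 (23.9 CPM) in the annotation. TARS2 fell 1.13-fold in UCSD-AML1 (edgeR adjusted p = 0.0187), a call lost without UCSD-AML1 vehicle replicate 1 or 2 or UCSD-AML1 cyclocreatine replicate 1 or 3 (adjusted p 0.0522 to 0.105).

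Of the rest of the mitochondrial set, NARS2 rose 1.25-fold in TF-1 and 1.11-fold in UCSD-AML1, EARS2 rose 1.20-fold in TF-1 and 1.10-fold in UT-7, and FARS2 and IARS2 rose 1.16-fold and 1.10-fold in TF-1. EARS2 and FARS2, for glutamate and phenylalanine, overlap GGA2 (120.0 CPM) and LYRM4 (65.3 CPM) in the annotation. RARS2 fell 1.11-fold in TF-1 and 1.18-fold in UCSD-AML1. LARS2 and PARS2, for leucine and proline, passed in no line. With library totals alone FARS2 and IARS2 did not pass in TF-1 (0.13 and 0.05, adjusted p 0.141 and 0.261), nor EARS2 in UT-7 (0.10, adjusted p = 0.144). The TF-1 call of FARS2 was lost without replicate 4 of either TF-1 group (adjusted p 0.0523 and 0.0895) and that of RARS2 without TF-1 cyclocreatine replicate 3 (0.0503). The UCSD-AML1 call of NARS2 was lost without vehicle replicate 1, 2 or 4 or cyclocreatine replicate 1 or 4 of that line (adjusted p 0.0537 to 0.114). The UT-7 call of EARS2 was lost without UT-7 vehicle replicate 1 or 3 or UT-7 cyclocreatine replicate 3 or 4 (adjusted p 0.0887 to 0.168), and also without UCSD-AML1 vehicle replicate 1 or 2 or UCSD-AML1 cyclocreatine replicate 1 or 3 (0.0509 to 0.0513).

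HARS and HARS2, for histidine, are transcribed away from each other from starts 85 bases apart. The stretch from one start to the other, at chr5:140691370-140691455 of GRCh38.p14 on the plus strand, is shown because the promoters of the pair share it, with capitals marking the first base of HARS, on the minus strand, and of HARS2, on the plus strand.
HARS to HARS2: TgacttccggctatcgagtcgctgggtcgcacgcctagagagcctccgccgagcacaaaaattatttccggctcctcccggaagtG
The pair moved apart in 2 lines. HARS had 58.4, 54.7, 58.8 and 58.8 CPM with cyclocreatine in TF-1, against 70.3, 66.5, 63.6 and 62.6 CPM with vehicle, and in UT-7 63.9, 59.5, 60.1 and 63.6 CPM, against 78.2, 78.3, 79.5 and 72.6 CPM. HARS2 had 48.5, 51.3, 37.3 and 38.6 CPM with cyclocreatine in TF-1, against 37.7, 34.9, 37.8 and 37.1 CPM with vehicle, and in UT-7 38.2, 36.6, 39.9 and 38.5 CPM, against 28.8, 32.0, 32.0 and 30.7 CPM. HARS was lower in all treated libraries of both lines, and HARS2 higher in all treated libraries of UT-7 but not of TF-1, where treated replicate 3 lay within the vehicle range. The log2 fold changes were -0.19 ± 0.05 for HARS and 0.25 ± 0.07 for HARS2 in TF-1 (edgeR adjusted p = 0.00117 and 0.00264), and -0.32 ± 0.05 and 0.31 ± 0.07 in UT-7 (7.77e-07 and 0.000632). In UCSD-AML1 HARS had 74.2, 83.1, 76.6 and 75.4 CPM with cyclocreatine, against 79.8, 79.5, 83.5 and 81.3 CPM with vehicle, and HARS2 46.0, 45.0, 43.3 and 42.9 CPM, against 42.2, 41.9, 39.2 and 41.3 CPM. Neither passed there (edgeR adjusted p = 0.281 and 0.231).

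A cytosolic gene and a mitochondrial gene of the same name form 13 pairs among the 36. In TF-1 both genes passed in the same direction for 6 of these 13 pairs (alanine, cysteine, methionine and threonine lower, valine and tyrosine higher) and in opposite directions for 5 (isoleucine, asparagine, tryptophan, histidine and arginine). Of these calls, those of IARS2, YARS and RARS in TF-1 were lost with library totals alone (adjusted p 0.261, 0.139 and 0.664). Those of AARS, NARS, RARS and RARS2 in TF-1 were lost when single libraries were left out. The pair for tryptophan lay furthest apart in TF-1, with WARS at -0.88 and WARS2 at 0.57. In UT-7 both passed in opposite directions for 2 pairs (tryptophan and histidine) and in the same direction for 2 (methionine and tyrosine). In UCSD-AML1 both passed in the same direction for 4 pairs (serine, valine, tyrosine and arginine) and in opposite directions for none. Over all genes tested, 26.7% rose and 29.3% fell in TF-1, 22.5% and 23.3% in UT-7, and 19.1% and 21.3% in UCSD-AML1. Outside these pairs, phenylalanine has the cytosolic subunits FARSA and FARSB beside FARS2, and EPRS serves the amino acids of both EARS2 and PARS2. In TF-1 FARSB fell while FARS2 rose, and EPRS passed in no line. For threonine and cysteine the mitochondrial gene fell in all 3 lines and the cytosolic gene passed in TF-1 only, with the TF-1 response of TARS and CARS below that of both other lines by the test of the difference.

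**Figure D4:**
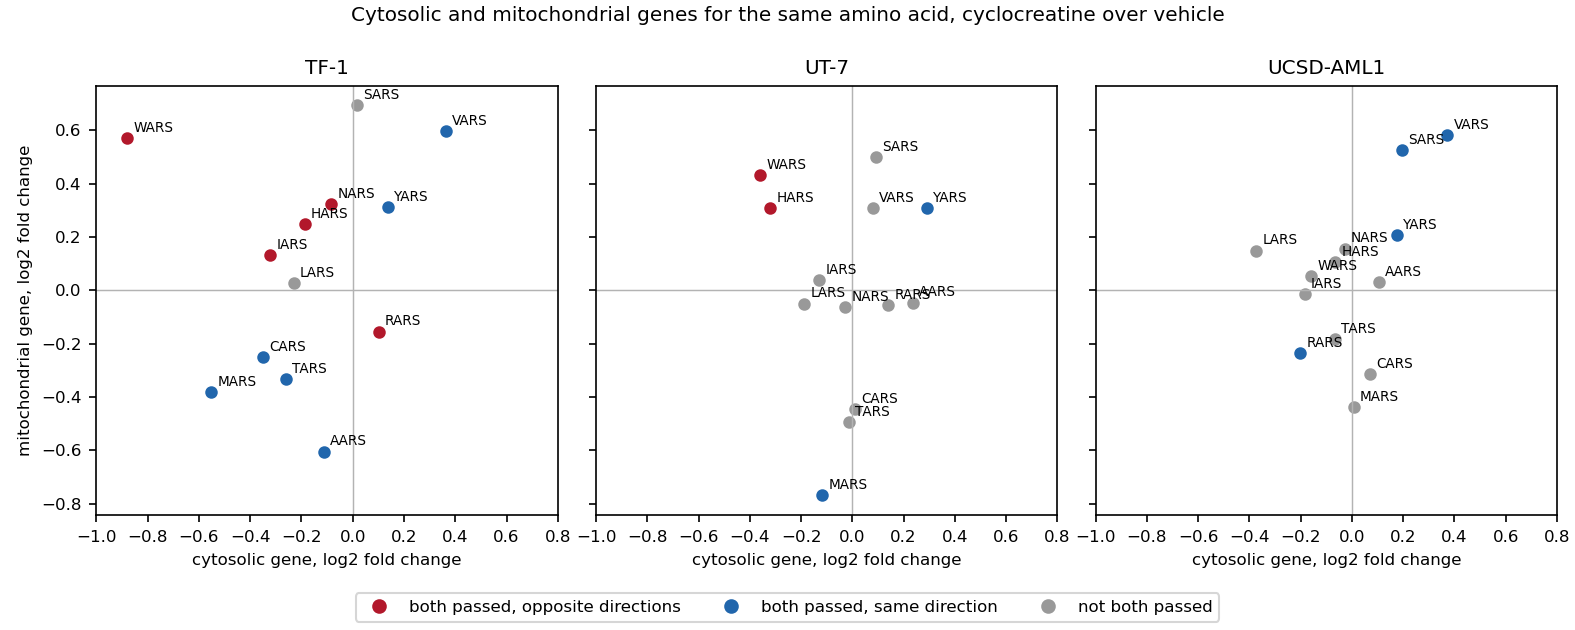
Log2 fold change, cyclocreatine over vehicle, of the mitochondrial gene against that of the cytosolic gene for 13 pairs of genes in each line, labelled by the cytosolic gene. In TF-1 and UT-7 the tryptophan pair sits at the upper left, with WARS lower and WARS2 higher, and the tyrosine pair sits at the upper right in all 3 lines.

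Across the 3 lines, 5 of the 36 genes rose in each (QARS, YARS, SARS2, VARS2 and YARS2), where 8.76% of all genes tested did. With library totals alone YARS did not pass in TF-1 (adjusted p = 0.139). A further 7 fell in each (FARSB, IARS, LARS, WARS, CARS2, MARS2 and TARS2), where 8.97% of all genes did. EPRS, LARS2 and PARS2 passed in no line, where 23.6% of all genes passed in none. AARS and RARS each rose in 2 lines and fell in the other, and 6.65% of all genes rose in at least 1 line and fell in at least 1.

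Other genes of mitochondrial translation gave a mixed picture. Of 15 listed factors and tRNA enzymes 14 were measured. In TF-1 3 rose and 1 fell, in UT-7 2 rose and 6 fell, and in UCSD-AML1 2 rose and 2 fell. The shares of all genes that rose and fell were 26.7% and 29.3%, 22.5% and 23.3%, and 19.1% and 21.3% in these lines. MRRF, which recycles mitochondrial ribosomes, rose 1.35-fold, 1.20-fold and 1.23-fold in TF-1, UT-7 and UCSD-AML1. MTFMT, which formylates the initiator methionyl-tRNA of mitochondria, rose 1.33-fold in TF-1, 1.25-fold in UT-7 and 1.17-fold in UCSD-AML1. In UT-7 the elongation factors TUFM and GFM1 fell 1.18-fold and 1.19-fold and the initiation factor MTIF2 fell 1.17-fold. LRPPRC, which stabilises mitochondrial mRNA, fell 1.23-fold in UCSD-AML1, and the release factor MTRF1L fell 1.24-fold in TF-1.

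Markers of blood lineages moved with treatment in all 3 lines. The summed level of 9 erythroid markers was 4133 to 4345 CPM with cyclocreatine and 6863 to 7281 CPM with vehicle in TF-1, 4109 to 4442 and 5856 to 5978 CPM in UT-7, and 368 to 387 and 585.1 to 616.9 CPM in UCSD-AML1, where HBA1 and HBB stood at 0 in both groups. Of the 9, 4 rose and 3 fell in TF-1 (median 0.13 on the log2 scale), while 5 fell in UT-7 and 3 in UCSD-AML1 with none higher. The gene with the greatest fall in CPM was TFRC, the transferrin receptor, which stood at 2370 CPM with cyclocreatine and 5292 CPM with vehicle in TF-1, at 1965 and 3487 CPM in UT-7, and at 361.0 and 579.9 CPM in UCSD-AML1. The summed level of 8 megakaryocyte markers was 1023 to 1114 CPM with cyclocreatine and 748.4 to 788.4 CPM with vehicle in TF-1, 1109 to 1136 and 923.6 to 965.4 CPM in UT-7, and 848.7 to 855.8 and 1030 to 1109 CPM in UCSD-AML1. Among these markers ITGA2B alone rose in TF-1 and UT-7 (949.5 CPM with cyclocreatine and 574.7 CPM with vehicle in TF-1), while 4 of the 7 tested fell in TF-1 and 3 in UT-7, with medians of -0.70 and -0.50. In UCSD-AML1, 2 rose and 3 fell. Among 8 myeloid blast markers, 4 rose and 2 fell in TF-1, and 1 rose and 4 fell in UT-7. In UCSD-AML1 2 of them rose and 2 fell. RUNX1 fell in TF-1, UT-7 and UCSD-AML1, by 1.4-fold, 1.43-fold and 1.42-fold, while CEBPA rose 1.76-fold in TF-1. Of all genes tested, 26.7% rose and 29.3% fell in TF-1, 22.5% and 23.3% in UT-7, and 19.1% and 21.3% in UCSD-AML1. The 6 lymphoid markers summed to 5.57 CPM or less in every TF-1 and UT-7 library, with MS4A1 at 0, and to 40.1 to 47.4 CPM in UCSD-AML1, mostly CD79A. Cytosolic ribosomal proteins took 6.83% to 7.39% of counts with cyclocreatine and 5.85% to 6.08% with vehicle in UT-7, and 7.07% to 7.28% and 5.95% to 6.18% in UCSD-AML1. The part of these shifts in the synthetase results was not tested.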

How the data were processed

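RNA sequencing gave 1 count file for each of 24 libraries, 4 per group. The authors deposited 1 count per RefSeq gene symbol, whole numbers in all files, which were treated here as raw counts. Per the submitters' processing notes the tools were FastQC, TopHat2 and RSEM, and the builds hg19 and GRCh37, with no versions or roles given, and RSEM estimates need not be whole numbers before rounding. Counts were fitted with edgeR 4.0.16 in R 4.3.3 as 1 group-means model over all libraries, after filterByExpr (smallest count 10, smallest total 15) and TMM scaling, with robust quasi-likelihood dispersions (median biological coefficient of variation 0.0572, and 18 residual degrees of freedom). Adjusted p-values (Benjamini-Hochberg) run over the 14588 genes tested within each contrast, in both directions. The SE was taken as the absolute log2 fold change divided by the root of F. Levels per kilobase use the GENCODE transcript with the longest coding sequence. The fit was tested on simulated data.

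The genes and lists were chosen with earlier results of these data known. Values in every library are given for the 3 genes per direction and line, and the 2 per pair of lines, with the largest called changes at a mean of at least 5 CPM, and for HARS and HARS2. From each other list, up to 4 genes per line with the smallest p among called genes of at least 1 CPM are named, and ATF4 always. The values of AARS in every library, and the calls of the remaining synthetase genes, are given beyond that rule, chosen after their values were seen. Alternatives were library totals alone, no filter on low counts, limma-voom (limma 3.58.1), DESeq2 1.42.0, each line alone, the replicate number as a block, and leaving out each of the 24 libraries. Replicate numbers did not pair libraries. Promoter sequences are from RefSeq, GRCh38.p14, and gene positions of the files' own build are not used here. Some genes of the other lists are counted but not reported here by name.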

Additional observations from a re-analysis of the deposited data

Results flagged for a closer look

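Among 216 groups of 4 libraries, 1 for each of the 36 genes in each of 6 groups, 14 held a library set apart from the other 3, where chance flags about 1 group in 20. Of the 14, 6 lay in the TF-1 cyclocreatine group. FARSA had 399.4 CPM in replicate 1, against 326.7 to 336.3 CPM in the others, and IARS had 313.5 CPM in the same library, against 343.5 to 347.4 CPM. Ribosomal protein genes took 10.2% of the counts of that library, more than in any other, and the part of that in these values was not tested. HARS had 54.7 CPM in replicate 2, against 58.4 to 58.8 CPM, and EARS2 had 55.4 CPM in that library, against 59.4 to 60.0 CPM. RARS had 141.4 CPM in replicate 4, against 156.9 to 159.9 CPM, and FARS2 had 26.3 CPM in that library, against 24.5 to 24.7 CPM. In TF-1 vehicle, TARS2 had 40.2 CPM in replicate 2, against 37.4 to 37.8 CPM.

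In UT-7 cyclocreatine, DARS had 156.3 CPM in replicate 2, against 146.9 to 148.2 CPM, and IARS2 had 121.6 CPM in replicate 4, against 126.9 to 127.7 CPM. In UT-7 vehicle, FARSB had 142.5 CPM in replicate 3, against 147.1 to 147.7 CPM. In UCSD-AML1 cyclocreatine, IARS had 377.5 CPM in replicate 1, against 365.8 to 367.2 CPM. In UCSD-AML1 vehicle, DARS had 235.4 CPM in replicate 1, against 224.5 to 225.8 CPM, FARSB 118.5 CPM in replicate 2, against 124.7 to 125.6 CPM, and RARS 111.6 CPM in replicate 3, against 103.5 to 104.1 CPM.

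By a test of the difference itself, the response to cyclocreatine differed for 13 genes between TF-1 and UT-7 (27.5% of all genes tested). It differed for 15 between TF-1 and UCSD-AML1 (29.1%), and for 11 between UT-7 and UCSD-AML1 (23.0%). The largest differences on the log2 scale were those of AARS2 (-0.56) and WARS (-0.52) between TF-1 and UT-7, of WARS (-0.72) and AARS2 (-0.64) between TF-1 and UCSD-AML1, and of WARS2 (0.38) and RARS (0.34) between UT-7 and UCSD-AML1.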

How the results depend on the processing

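No value of the 36 genes that passed the test changed sign under any alternative, in 7776 values from leaving out each library and 324 each from library totals alone, no filter, limma-voom and DESeq2. The number of genes higher in TF-1 was 14, and 9 with library totals alone. Leaving out 1 library gave 12 to 14 genes higher and 14 to 16 lower in TF-1, 9 to 12 and 10 in UT-7, and 7 to 11 and 9 to 12 in UCSD-AML1. Response differences then numbered 13 to 15, 13 to 17 and, between UT-7 and UCSD-AML1, 9 to 17, the highest without TF-1 cyclocreatine replicate 1, and the cause was not tested. Vehicle differences numbered 27 to 29, 26 to 28 and 32 to 35. With the replicate number as a block, 13 genes were higher and 16 lower in TF-1, 9 and 10 in UT-7, and 7 and 10 in UCSD-AML1, with 13, 14 and 10 response differences, and RARS in TF-1, EARS2 in UT-7 and AARS and NARS2 in UCSD-AML1 no longer passed (adjusted p 0.0501 to 0.0724). Same-numbered libraries did not deviate together (correlations -0.05 to 0.07, with 2 of 12 libraries closest to their own number). Of the 30 calls in TF-1, 25 held when any 1 library was left out, as did 19 of 20 in UT-7 and 16 of 19 in UCSD-AML1. In the other alternatives together 21 of 30, 19 of 20 and 17 of 19 held. In TF-1 library totals alone lost KARS, RARS, YARS, FARS2 and IARS2 (adjusted p 0.102 to 0.664), the line fitted alone lost AARS, FARSB, NARS, RARS, FARS2 and RARS2 (0.0531 to 0.173), no filter lost NARS (0.0749) and DESeq2 lost RARS (0.0683). EARS2 in UT-7 was lost with library totals alone, no filter and DESeq2 (0.0529 to 0.144), and NARS2 in UCSD-AML1 without the filter (0.0519). With each line fitted alone 12 genes were higher and 12 lower in TF-1, 13 and 10 in UT-7, and 12 and 12 in UCSD-AML1. Over all genes this setting gave 3158 higher and 3230 lower of 13196 tested in TF-1. UT-7 had 3919 and 3882 of 12517, and UCSD-AML1 had 3633 and 3680 of 12512. With 1 library left out, EARS2 in UT-7 and NARS2 in UCSD-AML1 reached adjusted p of 0.168 and 0.114. Depth limits few of these genes, since each had a mean above 10 CPM in every group.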
